A study of Mus musculus with 12 samples.

Results

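The CCN family comprises secreted matricellular proteins, which are deposited in the extracellular matrix and act there as signals rather than as structural fibres. Its members bind integrins and heparan sulfate proteoglycans on the cell surface and bind growth factors in the matrix, and they are built from the same set of modules, of which Ccn5 lacks the last. Ccn2 (also called CTGF) is a widely used transcriptional readout of TGF-β signalling in fibrosis, Ccn1 (CYR61) and Ccn2 are classical targets of the coactivators YAP and TAZ, and Ccn4 and Ccn5 are also known as Wnt-induced secreted proteins.

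The 5 genes Ccn1, Ccn2, Ccn3, Ccn4 and Ccn5 were taken by gene name from a table of 55401 mouse genes measured by poly(A) RNA sequencing. All 5 were among the 12016 genes tested, which are those with at least 1 FPKM (fragments per kilobase of transcript, scaled to sequencing depth) in at least 3 libraries. Ccn3 met that limit only through the untreated libraries. The sixth gene of the family, Ccn6, was not among the members and had between 0 and 7 counts per library, with any count at all in 6 of the 12 libraries.

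Bone marrow mesenchymal stem cells (BM-MSCs) of C57BL/6 mice, bought as a prepared cell stock, were compared in 4 groups of 3 libraries. They were left untreated, given TGF-β1 at 5 ng/mL, given TGF-β1 with the culture supernatant of monocytic myeloid-derived suppressor cells (TGF-β1/M-MDSC sup), or given TGF-β1 with the supernatant of granulocytic ones (TGF-β1/G-MDSC sup). Bone marrow cells were first cultured with GM-CSF and IL-6 to induce MDSCs. From these cultures M-MDSCs were sorted as CD11b+Ly6G-Ly6C high cells and G-MDSCs as CD11b+Ly6G+Ly6C low cells. MSCs received the culture supernatant of these cells and not the cells themselves. The paper's methods give RPMI-based medium for the MDSCs and DMEM for the MSCs. No group received a supernatant without TGF-β1, and none is described as given TGF-β1 in MDSC medium that had held no cells. What the MDSCs released and a change of medium therefore cannot be told apart. The labels do not say that the libraries of a group came from separate cultures or animals, so the p-values measure only the spread between these libraries. In such bulk libraries, fewer cells that transcribe a gene and less RNA per cell cannot be told apart.

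The libraries held 73977669 to 84565450 counts, and scaling factors lay between 0.978 and 1.03. The MSC identity was checked on 8 marker genes, of which Itgb1 (CD29), Cd44 and Pdgfrb were at 32.0 FPKM or more in every library. These 3 were higher with TGF-β1 without overlap, Itgb1 at 247 to 263 FPKM untreated and 381 to 388 FPKM in the TGF-β1 group, Cd44 at 38.5 to 41.1 and 48.5 to 59.8 FPKM, and Pdgfrb at 32.0 to 32.9 and 43.6 to 46.2 FPKM. Ly6a, the gene of Sca-1, had a mean of 245 FPKM untreated, 16.2 FPKM in the TGF-β1 group, 92.5 FPKM when M-MDSC sup was added and 66.9 FPKM when G-MDSC sup was added, and Eng stayed below 1 FPKM throughout. Nt5e lay between 0.321 and 1.66 FPKM, Thy1 was at 3.94 to 5.27 FPKM untreated and 2.03 to 2.42 FPKM in the TGF-β1 group, and Pdgfra reached 15.5 FPKM untreated and 5.33 FPKM in the TGF-β1 group. Of 5 markers that MSCs should lack, Kit, Pecam1, Ptprc and Cdh5 did not exceed 0.218 FPKM, whereas Cd34 had means of 63.1 FPKM untreated, 15.9 FPKM in the TGF-β1 group, 13.9 FPKM when M-MDSC sup was added and 12.1 FPKM when G-MDSC sup was added. Of 12 myeloid markers, Elane and Mpo were at 0 in all libraries, Ptprc did not exceed 0.0157 FPKM and Itgam 0.0927 FPKM. Ly6g and Ly6c2, which encode sort markers of MDSCs, had means of 1.83 and 1.71 FPKM untreated and of 0.0681 and 0.0450 FPKM in the TGF-β1 group, and Csf1r lay between 0.525 and 1.34 FPKM. The highest Lyz2 and S100a9 levels, 2.29 and 3.40 FPKM, were in libraries with a supernatant, and S100a9 was at 0 without. The summed level of these 12 myeloid genes, mostly Cd14, was 26.9 to 27.9 FPKM untreated, 13.6 to 15.8 FPKM in the TGF-β1 group, 20.5 to 25.9 FPKM when M-MDSC sup was added and 25.9 to 29.3 FPKM when G-MDSC sup was added. This sum and the levels of Itgb1, Cd44, Pdgfrb, Ly6a, Thy1, Pdgfra and Cd34 moved with the groups, and their part in the CCN results was not tested.

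The 5 genes lie on 4 chromosomes of GRCm38, and the positions in the deposited table were the same as in the GENCODE annotation for each of them. Ccn1 (ENSMUSG00000028195) lies at chr3:145646976-145649981 on the minus strand and encodes 379 residues. Ccn2 (ENSMUSG00000019997) lies at chr10:24595442-24598683 on the plus strand and encodes 348 residues. Ccn3 (ENSMUSG00000037362) lies at chr15:54745702-54754039 and encodes 354 residues, and Ccn4 (ENSMUSG00000005124) lies on the same chromosome at chr15:66891320-66923201 and encodes 367 residues, both on the plus strand. Ccn5 (ENSMUSG00000027656) lies at chr2:163820861-163833146 on the plus strand and encodes 251 residues, the shortest protein of the 5. The annotated coding transcript used for these lengths had 5 exons in each gene. A long non-coding transcript, Gm15270, overlaps Ccn2 on the other strand. It had at most 1023 counts in a library, while Ccn2 had at least 61908.

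The promoter of Ccn1 is shown because it carries the letters of a TEAD site, the DNA element through which YAP and TAZ act. The table of RefSeq promoters used here matched 1 of the 5 genes. The 250 bases upstream of the Ccn1 start, at chr3:145649986-145650235 of GRCm38.p6, minus strand, are given 5′ to 3′, with the TEAD letters in capitals.
Ccn1 promoter: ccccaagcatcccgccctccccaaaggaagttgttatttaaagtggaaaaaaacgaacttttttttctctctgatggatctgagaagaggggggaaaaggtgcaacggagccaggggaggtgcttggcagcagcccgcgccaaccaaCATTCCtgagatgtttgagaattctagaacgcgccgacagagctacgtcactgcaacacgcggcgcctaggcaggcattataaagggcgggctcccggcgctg
The TEAD letters GGAATG, searched on both strands, matched 1 time, starting 103 bases upstream, and 12.6% of 32851 promoters of the same length hold them. The cyclic AMP response half-site TGACG also matched 1 time, 58 bases upstream, and 17.8% of promoters hold it. The letters GTCTAGAC and GTCTNGTCT of SMAD elements, TGANTCA of AP-1 and TGACGTCA of the full cyclic AMP element, and the CArG box of SRF, were not in this window, and 0.167%, 0.767%, 6.75%, 1.55% and 1.47% of promoters hold them, respectively. The full cyclic AMP element contains the half-site letters. A match of letters is a description of the sequence and not evidence of binding.

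In untreated MSCs, Ccn1 had the highest level per transcript length of the 5 genes. Its FPKM were 420, 475 and 448 in the 3 libraries. Ccn2 followed at 253, 281 and 258 FPKM. Ccn5, at 15.7, 17.5 and 17.1 FPKM, and Ccn4, at 14.6, 15.4 and 16.0 FPKM, came next and their ranges overlapped, although Ccn5 was 1.07 to 1.14 times Ccn4 within each library. Ccn3 was lowest at 3.07, 2.86 and 2.59 FPKM, from 665 to 765 counts.

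TGF-β1 moved each of the 5 genes beyond the spread between libraries, with 4 higher and 1 lower. Throughout, a gene is called when its adjusted p is under 0.05 in edgeR's quasi-likelihood F test with Benjamini-Hochberg adjustment over all 12016 genes, in a single fit of the 4 groups. With TGF-β1 against untreated, 5 of 5 members were called, where 34.0% of all tested genes were (16.1% higher and 17.9% lower). By the study's own limits, which ask for more than a 2-fold difference in either direction and an unadjusted p under 0.05, 4 of 5 were called, against 6.74% of tested genes. The groups did not overlap for 5 of 5 members, against 46.7% of tested genes. Ccn3 was tested only because it was above the limit in the untreated libraries, which ties its place in these counts to its fall. With every gene of at least 1 count tested, 28622 in all, its log2 fold change was -3.11 (adjusted p = 5.66e-06). The median log2 fold change of the 5 was 1.18, against 0.0005 over all tested genes.

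Ccn2 rose most. It reached 1400, 1551 and 1455 FPKM with TGF-β1, so that the lowest treated library lay far above the highest untreated one at 281 FPKM. The log2 fold change was 2.53 (SE 0.055, 95% interval 2.41 to 2.65, adjusted p = 5.63e-10), a 5.78-fold rise with rank 70 among the rises of all tested genes.

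Ccn4, which is expressed in healing and fibrotic tissue, rose 3.93-fold. Its FPKM were 55.9, 61.6 and 56.2 with TGF-β1 against 16.0 at most without. The log2 fold change was 1.98 (SE 0.073, 95% interval 1.81 to 2.14, adjusted p = 1.05e-08).

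Ccn5, the member without the carboxy-terminal module, rose 2.27-fold, to 35.0, 35.9 and 38.7 FPKM from 15.7 to 17.5 FPKM. The log2 fold change was 1.18 (SE 0.082, 95% interval 1.00 to 1.36, adjusted p = 1.22e-06). All treated libraries lay above all untreated ones.

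Ccn1, an immediate-early gene, changed least. It had 507, 515 and 520 FPKM with TGF-β1, above the highest untreated library at 475 FPKM. The rise was 1.20-fold (log2 fold change 0.26, SE 0.044, 95% interval 0.16 to 0.35, adjusted p = 0.000944), below the study's 2-fold limit.

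Ccn3 (NOV), known from other settings as a counterpart of Ccn2 in matrix regulation, went the other way. It fell to 0.352, 0.276 and 0.308 FPKM with TGF-β1, from 73 to 91 counts, and no treated library came near the lowest untreated value of 2.59 FPKM. The log2 fold change was -3.12 (SE 0.26, 95% interval -3.69 to -2.55, adjusted p = 4.80e-06), which is 8.70-fold lower in a gene that passed the filter only through the untreated libraries. On log2(FPKM + 1) values with limma the difference was -1.55, since this scale understates changes of low genes.

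**Figure D1:**
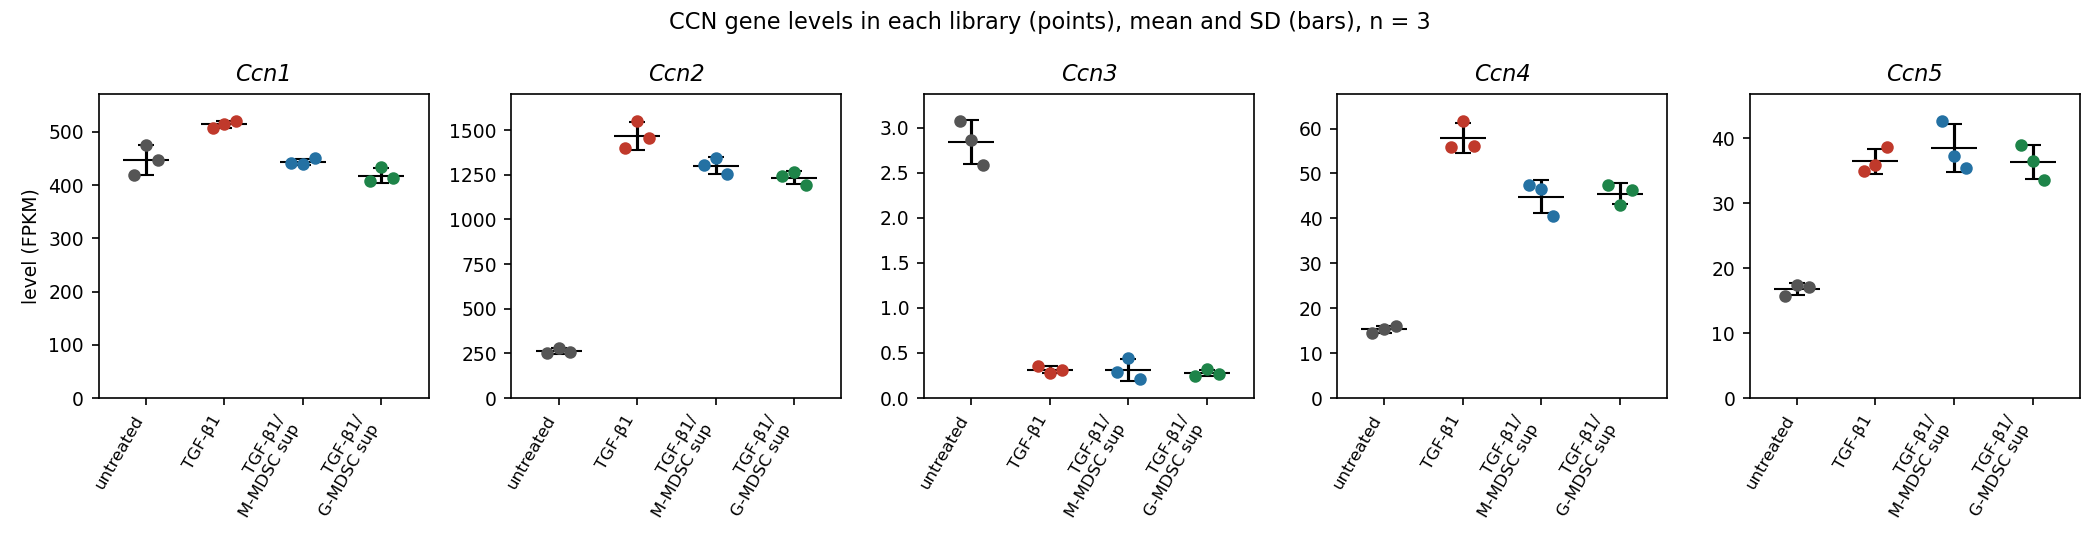
Level of each CCN gene in FPKM (y axis, from 0, scaled per gene) in each of the 12 libraries (points), by group (x axis), with horizontal lines for the mean and bars for the SD of 3 libraries. Untreated libraries lie apart from the TGF-β1 libraries for every gene, and Ccn1 alone returns to 407 to 451 FPKM with the supernatants, next to 420 to 475 FPKM untreated.

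These changes altered the make-up of the CCN transcript pool. The summed level of the 5 genes was 747 ± 43.1 FPKM untreated (SD, n = 3) and 2077 ± 82.9 FPKM with TGF-β1. Ccn1 made up 59.9% ± 0.483 of the sum untreated and 24.8% ± 0.847 with TGF-β1. Ccn2 made up 35.4% ± 0.545 and 70.7% ± 0.880. Ccn4 and Ccn5 together with Ccn3 stayed a small part, and Ccn4 overtook Ccn5. The order of levels was therefore Ccn1, Ccn2, Ccn5, Ccn4, Ccn3 untreated and Ccn2, Ccn1, Ccn4, Ccn5, Ccn3 in each of the groups with TGF-β1. Neighbours in that second order did not overlap, except Ccn4 and Ccn5 with TGF-β1/M-MDSC sup, where Ccn4 was still 1.11 to 1.24 times Ccn5 within each library.

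**Figure D2:**
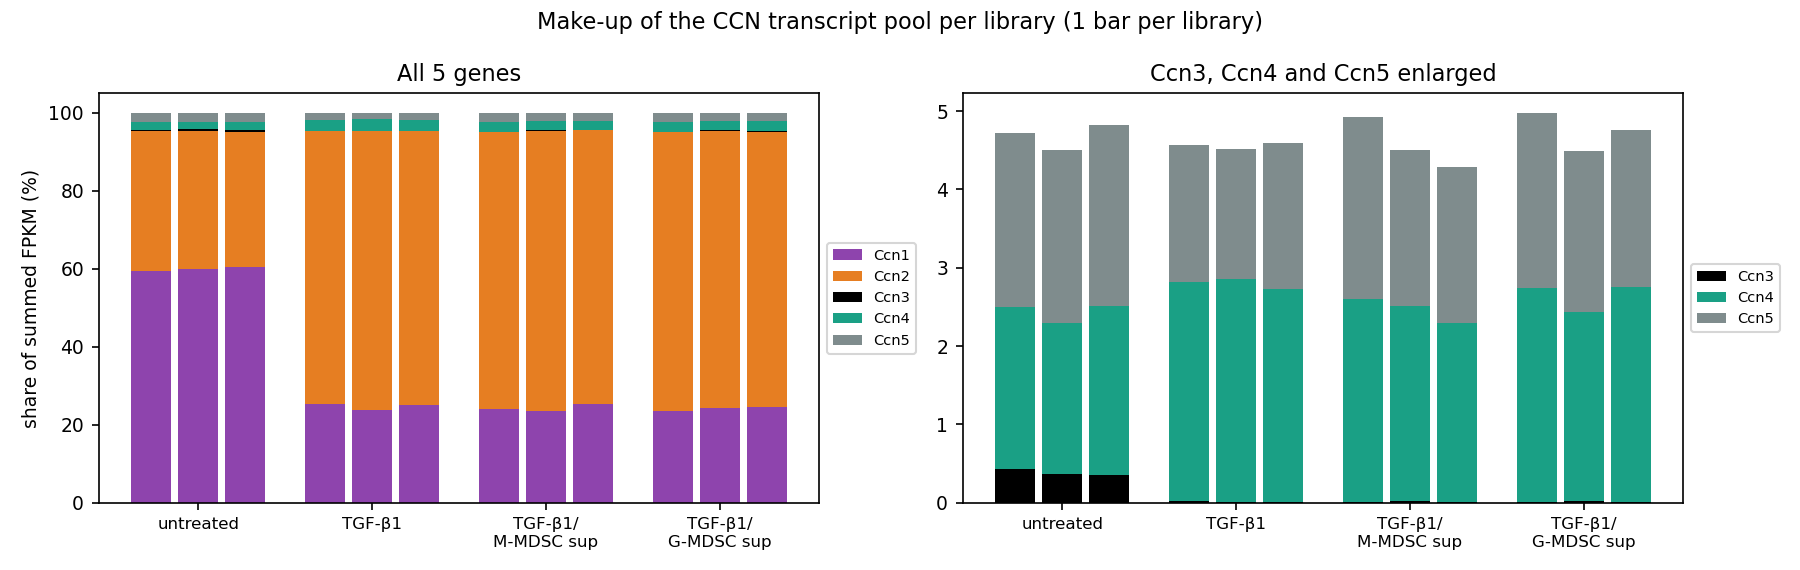
Share of the summed FPKM of the 5 CCN genes (y axis, percent) held by each gene, with a bar for each library and the groups along the x axis. The right panel enlarges Ccn3, Ccn4 and Ccn5, and shows the Ccn3 share of 0.382% in untreated libraries shrinking to 0.0151% with TGF-β1 while Ccn4 widens from 2.05% to 2.79%.

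The question put to the supernatants was whether they changed the response to TGF-β1. The TGF-β1 libraries serve in both comparisons, which are therefore not independent, and each is given with its own values. With TGF-β1/M-MDSC sup against TGF-β1, 2 of 5 members were called, both lower, where 4.78% of tested genes were called and 1.95% were called lower. With TGF-β1/G-MDSC sup, 3 of 5 were called, all lower, where 5.56% of tested genes were called and 2.46% were called lower. By the study's limits, 0 members were called in either comparison, with 2.18% and 2.17% of tested genes called. At an unadjusted p under 0.05 and with no fold limit, edgeR passed 3 members in each comparison, and at an adjusted p under 0.05 DESeq2 passed 3 in each and limma 2 and 3. For 3 members in each comparison all supernatant libraries lay below all TGF-β1 libraries, which held for 10.6% and 9.55% of tested genes. The median log2 fold change of the 5 was -0.20 and -0.28, against -0.01 over all tested genes in both.

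Ccn1 fell with both supernatants, to about its untreated level of 420 to 475 FPKM. It had 441, 439 and 451 FPKM with TGF-β1/M-MDSC sup, a log2 fold change of -0.24 (SE 0.044, 95% interval -0.33 to -0.14, adjusted p = 0.0109). Without TGF-β1 replicate 3 this became -0.21 with an adjusted p of 0.0688, and the call was lost. With TGF-β1/G-MDSC sup it had 407, 433 and 413 FPKM, a log2 fold change of -0.33 (SE 0.044, 95% interval -0.42 to -0.23, adjusted p = 0.00123). All supernatant libraries lay below all TGF-β1 libraries, the M-MDSC sup libraries lay within the untreated range, and 2 of the 3 G-MDSC sup libraries lay below it. Against untreated, Ccn1 differed by 0.02 with M-MDSC sup (95% interval -0.075 to 0.12, adjusted p = 0.742) and by -0.07 with G-MDSC sup (95% interval -0.16 to 0.029, adjusted p = 0.272) on the log2 scale.

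Ccn4 fell with both supernatants but stayed well above untreated. Its FPKM were 47.4, 46.5 and 40.6 with TGF-β1/M-MDSC sup, a log2 fold change of -0.39 (SE 0.070, 95% interval -0.55 to -0.24, adjusted p = 0.00847). They were 47.4, 43.0 and 46.3 with TGF-β1/G-MDSC sup, a log2 fold change of -0.37 (SE 0.070, 95% interval -0.53 to -0.22, adjusted p = 0.00979). The highest of these libraries lay below the lowest TGF-β1 library at 55.9 FPKM. When only the compared groups were fitted, the log2 fold change with M-MDSC sup was -0.38 with an adjusted p of 0.0623, and the call was lost.

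Ccn2 was lower in every supernatant library than in any TGF-β1 library, and the call depended on the supernatant and the fit. With TGF-β1/G-MDSC sup it had 1245, 1264 and 1193 FPKM, a log2 fold change of -0.28 (SE 0.052, 95% interval -0.39 to -0.16, adjusted p = 0.00997). Without TGF-β1 replicate 3 this was -0.27 with an adjusted p of 0.0520. With TGF-β1/M-MDSC sup it had 1304, 1346 and 1253 FPKM, a log2 fold change of -0.20 (SE 0.052, 95% interval -0.31 to -0.081), and the adjusted p of 0.0647 missed the threshold. DESeq2 gave -0.19 with an adjusted p of 0.0469 for the same comparison. In all 6 supernatant libraries Ccn2 was at 1193 FPKM or more, against 281 FPKM at most untreated.

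Ccn5 and Ccn3 were not called with either supernatant. Ccn5 had 42.7, 37.4 and 35.5 FPKM with TGF-β1/M-MDSC sup (log2 fold change 0.05, 95% interval -0.13 to 0.23, adjusted p = 0.812) and 38.9, 36.5 and 33.6 FPKM with TGF-β1/G-MDSC sup (-0.03, 95% interval -0.21 to 0.15, adjusted p = 0.906). These libraries overlapped the TGF-β1 libraries at 35.0 to 38.7 FPKM. Ccn3 had 0.285, 0.448 and 0.206 FPKM with TGF-β1/M-MDSC sup (log2 fold change -0.01, 95% interval -0.57 to 0.54, adjusted p = 0.989) and 0.242, 0.317 and 0.272 FPKM with TGF-β1/G-MDSC sup (-0.20, 95% interval -0.75 to 0.36, adjusted p = 0.787). At 52 to 107 counts per library, differences in Ccn3 smaller than these intervals were not detectable.

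**Figure D3:**
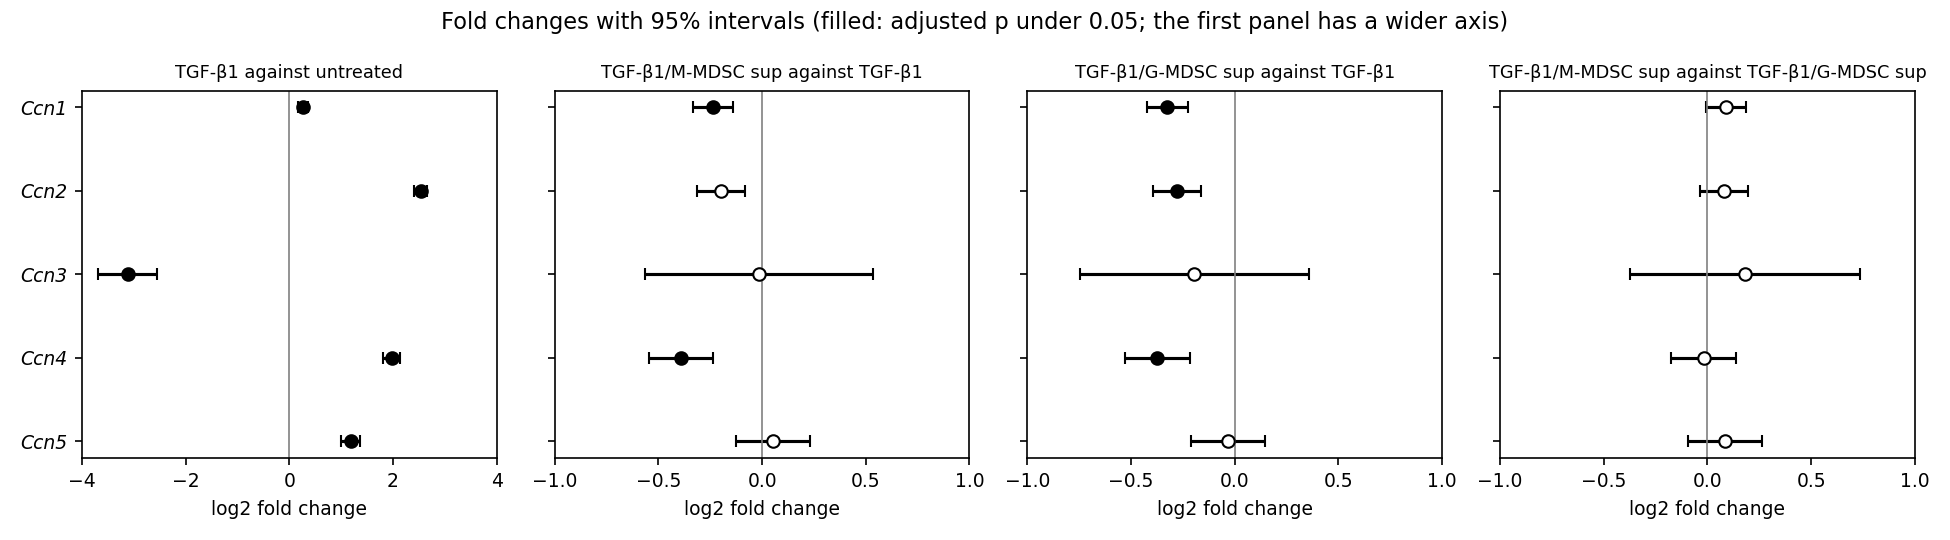
Log2 fold change of each CCN gene (x axis) with its 95% interval (bars) in 4 comparisons (panels), filled where the adjusted p was under 0.05. The first panel has a wider axis, from Ccn3 at -3.12 to Ccn2 at 2.53, the point estimates against TGF-β1 lie between -0.39 and 0.05 with either supernatant, and those between the supernatants lie between -0.02 and 0.18.

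The FPKM, used here without the scaling factors of the fit, can be set on the scale of the TGF-β1 effect itself. They give the share of the difference between the untreated and TGF-β1 means that was taken back. For Ccn1 this share was 106% with M-MDSC sup (95.1% to 113% over the 3 libraries) and 145% with G-MDSC sup (122% to 161%). For Ccn4 it was 30.7% (24.6% to 40.7%) and 29.0% (24.8% to 35.0%). For Ccn2 it was 13.9% (10.1% to 17.9%) and 19.5% (17.0% to 22.8%). For Ccn5 it was -9.96% (-31.1% to 5.39%) and 0.801% (-12.1% to 14.6%), and for Ccn3 0.0277% (-4.21% to 5.38%) and -1.39% (-2.75% to 0.180%). Ccn1, which moved least with TGF-β1, was the only member of the 5 with a library in the untreated range in either supernatant group. These shares are descriptions, since the same TGF-β1 and untreated means enter each of them, and their ranges hold those means fixed. For Ccn1 those means were close, at 448 ± 27.6 FPKM untreated and 514 ± 6.47 FPKM with TGF-β1 (SD, n = 3). In the edgeR fit, with scaling factors, Ccn1 with M-MDSC sup was still 0.02 above untreated on the log2 scale (95% interval -0.075 to 0.12).

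Against untreated, 4 of 5 members were called with each supernatant, 3 higher and 1 lower, where 35.2% of tested genes were called with M-MDSC sup (16.4% higher and 18.9% lower) and 34.8% with G-MDSC sup (16.4% higher and 18.4% lower). Ccn2 was higher by 2.33 (adjusted p = 1.00e-09) and 2.25 (adjusted p = 1.12e-09) on the log2 scale. Ccn4 was higher by 1.58 (adjusted p = 5.01e-08) and 1.60 (adjusted p = 4.88e-08), and Ccn5 by 1.23 (adjusted p = 8.69e-07) and 1.15 (adjusted p = 1.58e-06). Ccn3 differed by -3.13 (adjusted p = 4.54e-06) and -3.32 (adjusted p = 3.37e-06). It was tested only because it was above the limit in the untreated libraries, which ties its place in these counts to its fall. The untreated libraries are shared by these comparisons.

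Between the supernatants no member was called, where 0.125% of tested genes were. No member had an unadjusted p under 0.05 in edgeR, and DESeq2 and limma called 0 as well. Ccn1 was the only member whose groups did not overlap, at 439 to 451 FPKM with M-MDSC sup and 407 to 433 FPKM with G-MDSC sup, a separation in that direction found for 5.97% of tested genes. The log2 differences, M-MDSC sup minus G-MDSC sup, were 0.09 for Ccn1 (95% interval -0.007 to 0.19), 0.08 for Ccn2 (-0.036 to 0.20), 0.18 for Ccn3 (-0.37 to 0.73), -0.02 for Ccn4 (-0.17 to 0.14) and 0.09 for Ccn5 (-0.093 to 0.26).

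Ratios of members within a library do not depend on the scaling of libraries, and were compared over the 4 groups by exact permutation tests over the 369600 assignments of the libraries, with p-values adjusted over the 10 pairs. Each of the 10 ratios differed among the groups, with adjusted p between 0.00195 and 0.0171. Ratios that contain Ccn3 rest on a gene tested only through its untreated level, which ties their difference to that selection. The mean log2 ratio of Ccn2 over Ccn1 was -0.76 ± 0.034 untreated, 1.51 ± 0.068 in the TGF-β1 group, 1.55 ± 0.072 with M-MDSC sup and 1.56 ± 0.044 with G-MDSC sup (SD, n = 3, exact permutation p = 0.0102, adjusted 0.0160). Ccn1 and Ccn2 thus kept nearly the same proportion in the groups with TGF-β1, at 2.76 to 3.07 times as much Ccn2 as Ccn1. The mean log2 ratio of Ccn5 over Ccn4 was 0.13 ± 0.049 untreated, -0.66 ± 0.12 in the TGF-β1 group, -0.22 ± 0.085 with M-MDSC sup and -0.33 ± 0.12 with G-MDSC sup (exact permutation p = 0.000195, adjusted 0.00195). For this pair each supernatant library lay between the untreated and the TGF-β1 libraries.

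Most of these differences lay between untreated and the groups with TGF-β1. In exact permutation tests over the 3 groups with TGF-β1 alone, a comparison chosen after the data were seen, 0 of the 10 ratios had an adjusted p under 0.05. An unadjusted p under 0.05 was found for 2 of them, Ccn5 over Ccn4 (exact permutation p = 0.0107, adjusted 0.107) and Ccn5 over Ccn2 (p = 0.0464, adjusted 0.134). The smallest p this design allows is 0.00357. For the ratios of Ccn5 over Ccn4, Ccn2 and Ccn1, every supernatant library lay above every TGF-β1 library, while the ratio of Ccn2 over Ccn1 overlapped between these groups (exact permutation p = 0.561). The ratios of Ccn4 over Ccn2 and over Ccn1 were lower in every M-MDSC sup library than in any TGF-β1 library, and overlapped with G-MDSC sup. How often pairs of other tested genes separate in this way was not tested.

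**Figure D4:**
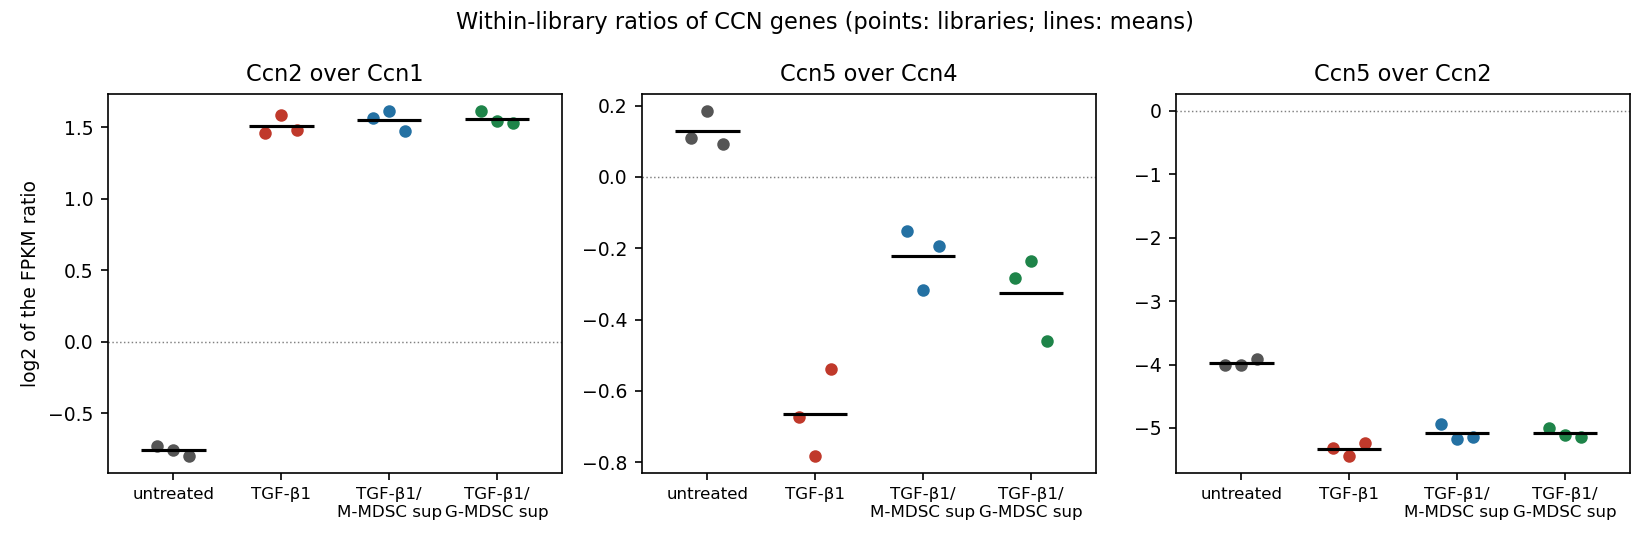
Log2 ratio of the FPKM of a pair of CCN genes within each library (y axis; points are libraries, lines are means) in the 4 groups (x axis). Ccn2 over Ccn1 jumps from -0.76 to 1.51 with TGF-β1 and then stays, while Ccn5 over Ccn4 lies at -0.66 with TGF-β1 and at -0.22 and -0.33 with the supernatants.

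Across the 12 libraries, Ccn2, Ccn4 and Ccn5 followed each other and Ccn3 ran opposite to them. The Pearson r of log2(FPKM + 1) was 0.989 between Ccn2 and Ccn4, 0.981 between Ccn2 and Ccn5 and -0.987 between Ccn2 and Ccn3, whereas r of Ccn1 with the other members lay between -0.11 and 0.28. These values describe 12 libraries that fall into untreated and TGF-β1 clusters, so they mostly repeat that contrast.

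The genes with the most similar pattern were sought among the 807 tested genes whose group means differed by at least 1 on the log2 scale, with the same measure over the same 12 libraries. For Ccn2 these included Anxa8 (r = 0.999), Pdgfc (0.998), which encodes a platelet-derived growth factor, Chsy1 (0.998), a chondroitin sulfate synthase, and Itga5 (0.997), the fibronectin receptor subunit. For Ccn4 they were Ank (0.997), Pcolce2 (0.995), an enhancer of procollagen processing, Tnc (0.995), which encodes the matricellular protein tenascin-C, F2rl1 (0.995) and Sorcs2 (0.995). For Ccn5 they were 1600027J07Rik (0.991), Plin2 (0.990), Junb (0.990), Gadd45g (0.989) and Dyrk3 (0.988). For Ccn3 they were Slco2a1 (0.995), a prostaglandin transporter, Dio3 (0.995), which inactivates thyroid hormone, Cdc42ep2 (0.993), Adamts9 (0.993) and Rassf2 (0.993). Of these, Dio3, Cdc42ep2, Adamts9 and Rassf2 had means under 1 FPKM in each group with TGF-β1, as Ccn3 had. Their r mostly repeats the contrast of untreated and TGF-β1 libraries. For Ccn1, whose own group means differed by at most 0.30 on this scale, genes with changes of its size were not among the candidates. The 5 found were Lrrc47 (0.718), Gm14438 (0.697), Gm10420 (0.681), Zfp62 (0.680) and Tmed2 (0.674).

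Of 16 genes for CCN receptors and co-receptors, 10 passed the filter, and with TGF-β1 against untreated 5 rose and 3 fell, where 16.1% of all tested genes rose and 17.9% fell. Their median log2 fold change was 0.26, against 0.0005 over all tested genes. Itga5 rose from 45.0 ± 2.08 to 196 ± 10.1 FPKM (SD, n = 3, log2 fold change 2.18, adjusted p = 1.99e-09). Itga6, a laminin receptor subunit through which CCN1 and CCN2 also bind, fell from 5.57 ± 0.708 to 2.13 ± 0.255 FPKM (-1.33, adjusted p = 1.66e-05). Sdc4, a heparan sulfate proteoglycan, fell from 80.5 ± 1.74 to 38.9 ± 1.12 FPKM (-0.99, adjusted p = 2.67e-08), and Itgb2, the leukocyte integrin subunit, fell from 1.25 ± 0.105 to 0.400 ± 0.115 FPKM (-1.58, adjusted p = 0.000702). Itgb2 also passed the filter only through the untreated libraries, and without the filter its adjusted p was 0.00133. With M-MDSC sup against TGF-β1, edgeR called 0 of the 10, where 4.78% of all tested genes were called, with 5 at an unadjusted p under 0.05 and 1 called by each of DESeq2 and limma. With G-MDSC sup only Itga6 was called, at 1.45 ± 0.0657 FPKM (-0.58, adjusted p = 0.0260), where 5.56% of all tested genes were called. That call was lost in 5 of the 6 fits that left out a compared library, those without TGF-β1 replicate 1 or 2 or any G-MDSC sup replicate, with an adjusted p of up to 0.103. Over the 6 fits its log2 fold change was -0.62 to -0.47.

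Of 19 genes of the Hippo pathway and its TEAD cofactors, which carry the signal to Ccn1 and Ccn2, all passed the filter, and with TGF-β1 6 rose and 4 fell with a median of 0.13, where 34.0% of all tested genes were called. Tead4, a DNA-binding partner of YAP, fell from 4.47 ± 0.287 to 2.11 ± 0.166 FPKM (log2 fold change -1.02, adjusted p = 1.27e-05). Mrtfa, a coactivator of SRF, rose by 0.71 (adjusted p = 0.00513), the kinase gene Lats1 by 0.46 (adjusted p = 0.00336) and Srf by 0.38 (adjusted p = 0.000549). With the supernatants edgeR called 0 of the 19, against 4.78% and 5.56% of all tested genes, with 7 genes at an unadjusted p under 0.05 for M-MDSC sup and 4 for G-MDSC sup. DESeq2 called 3 and 1, and limma 0 and 0.

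The other YAP and TAZ targets did not move in a single direction. Of 20 genes of that list, Ccn1 and Ccn2 not among them, 19 were tested, 6 rose and 7 fell with TGF-β1, where 16.1% of all tested genes rose and 17.9% fell, and their median was -0.20. Gadd45a, a stress-response gene, rose from 14.5 ± 1.41 to 70.4 ± 2.13 FPKM (log2 fold change 2.33, adjusted p = 1.95e-08). It fell to 53.7 ± 6.05 FPKM with M-MDSC sup (-0.41, adjusted p = 0.0233) and to 45.8 ± 2.24 FPKM with G-MDSC sup (-0.65, adjusted p = 0.00139). The call with M-MDSC sup was lost when any 1 of TGF-β1 replicates 1, 2 and 3 or M-MDSC sup replicate 1 was left out. Over the fits that left out a compared library the log2 fold change was -0.47 to -0.32, with an adjusted p of up to 0.0994. Nt5e (CD73) rose by 1.35 (adjusted p = 2.41e-05) from 0.407 ± 0.0925 FPKM, having passed the filter only through libraries with TGF-β1 (without the filter, adjusted p = 3.50e-05), and was higher again with G-MDSC sup at 1.65 ± 0.0215 FPKM (0.69, adjusted p = 0.0130). That last call was lost without TGF-β1 replicate 2 or 3, with an adjusted p of up to 0.0536. Over the fits that left out a compared library its log2 fold change was 0.67 to 0.73. Nuak2 rose by 1.33 (adjusted p = 2.72e-08) and Fjx1 by 0.96 (adjusted p = 7.82e-05). In all, 1 of the 19 was called with M-MDSC sup, a share near the 4.78% of all tested genes, and 3 with G-MDSC sup, where 5.56% of all tested genes were called, the third being Crim1, which fell by 0.38 (adjusted p = 0.00243).

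Most of the early targets of TGF-β and SMAD signalling rose with TGF-β1. Of 16 genes, all tested, 11 rose and 2 fell, with a median of 0.97, where 16.1% of all tested genes rose and 17.9% fell. The list was chosen with earlier results of these data known. Tgfb1 itself rose from 3.61 ± 0.294 to 13.7 ± 1.82 FPKM (log2 fold change 1.98, adjusted p = 9.50e-07), and Ltbp2, a latent TGF-β binding protein family member, from 12.2 ± 1.5 to 44.4 ± 1.07 FPKM (1.92, adjusted p = 9.84e-08). The repressor gene Bhlhe40 rose from 22.6 ± 0.717 to 76.3 ± 1.17 FPKM (1.81, adjusted p = 3.78e-10), and Pmepa1, a feedback inhibitor of the pathway, from 26.0 ± 0.894 to 84.4 ± 2.42 FPKM (1.76, adjusted p = 2.61e-09). Bhlhe40 fell with M-MDSC sup by 0.25 (adjusted p = 0.00141), the only edgeR call among the 16, a share near the 4.78% of all tested genes, and with G-MDSC sup by 0.26 (adjusted p = 0.00106), where Pmepa1 also fell by 0.22 (adjusted p = 0.0348) and 5.56% of all tested genes were called. The Pmepa1 call was lost in each of the 6 fits that left out a compared library, at log2 fold changes of -0.24 to -0.19 and an adjusted p of up to 0.126. DESeq2 and limma called 3 and 2 of the 16 with M-MDSC sup, and 4 and 2 with G-MDSC sup.

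Targets of Wnt and β-catenin, the pathway for which Ccn4 and Ccn5 were named, were mostly too low to test. Of 13 genes 6 passed the filter, and with TGF-β1 2 rose and 2 fell, with a median of 0.11, where 34.0% of all tested genes were called. Axin2, a feedback target of the pathway, fell from 1.51 ± 0.295 to 0.643 ± 0.144 FPKM (log2 fold change -1.17, adjusted p = 0.000957; without the filter on low values 0.00148), having passed the filter only through the untreated libraries, and the Wnt antagonist gene Dkk2 fell by 1.11 (adjusted p = 0.000278). Lef1 rose by 1.02 (adjusted p = 2.93e-05) and Apcdd1 by 0.38 (adjusted p = 0.000146). Apcdd1 was the only call with the supernatants, at -0.26 with M-MDSC sup (adjusted p = 0.0121) and -0.37 with G-MDSC sup (adjusted p = 0.00116), against 4.78% and 5.56% of all tested genes. The call with M-MDSC sup was lost without TGF-β1 replicate 2 or M-MDSC sup replicate 2 or 3, with an adjusted p of up to 0.0591. Over the fits that left out a compared library its log2 fold change was -0.29 to -0.22. Between the supernatants, edgeR, DESeq2 and limma each called 0 genes of the 5 lists, with 8 at an unadjusted p under 0.05 in edgeR.

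By the study's limits fewer list genes were called with TGF-β1, namely 3 of 10 receptors, 1 of 19 Hippo genes, 3 of 19 YAP and TAZ targets, 8 of 16 early TGF-β targets and 3 of 6 Wnt targets, against 6.74% of all tested genes. With either supernatant these limits called 0 genes of the 5 lists, against 2.18% and 2.17% of all tested genes.

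**Figure D5:**
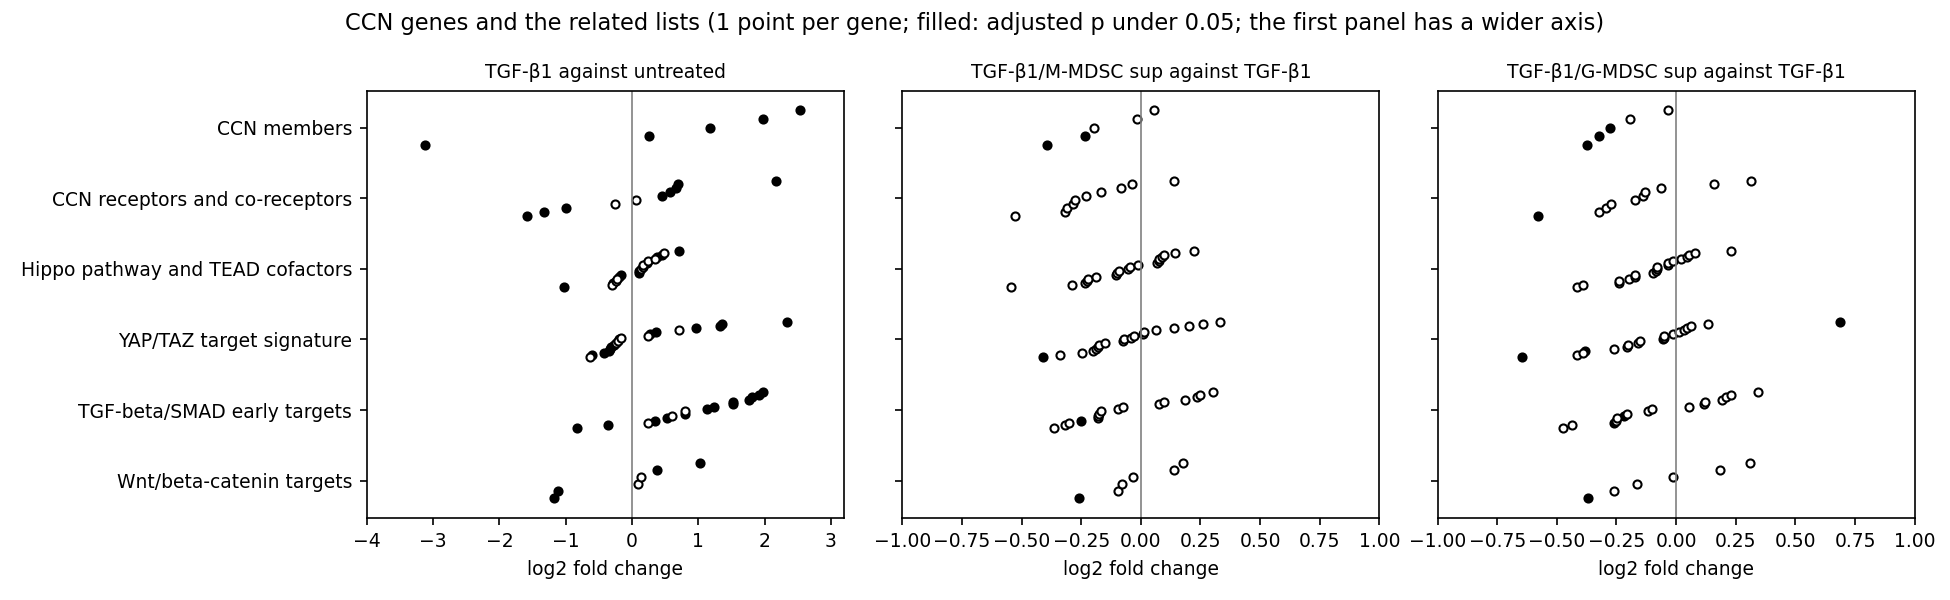
Log2 fold change (x axis) of each tested gene (points) of the CCN family and 5 related lists (rows) in 3 comparisons (panels), filled where the adjusted p was under 0.05, with a wider axis in the first panel. Most early TGF-β targets lie right of 0 with TGF-β1, and in the supernatant panels the filled points are few and, apart from Nt5e, left of 0.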

How the data were processed

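RNA of 12 BM-MSC libraries was sequenced as poly(A) RNA with a strand-marking kit. Per the paper's methods and the labels, the authors checked read quality with fastp (the submitters' processing notes also name cutadapt 1.9), aligned the reads to GRCm38 with HISAT2 2.0.4 and assembled transcripts with StringTie 1.3.4d. The counting tool and its strand setting are not given in the sources used here, so reads of Ccn2 and of the antisense Gm15270 may not be separated. The deposited table holds whole-number counts per gene, used for the edgeR and DESeq2 tests, and the authors' FPKM, which show 0.0001 for genes without counts. FPKM were used for levels, ratios and the filter.

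Groups were taken from the sample labels. Library sizes were adjusted with TMM factors, and counts were tested with edgeR 4.0.16 (two-sided) in R 4.3.3, and 95% intervals come from the same fit. DESeq2 1.42.0 and limma 3.58.1 on log2(FPKM + 1) were alternatives. Simulated counts for TGF-β1 against untreated were used to check edgeR: of 200 genes changed 2-fold among 12016, 174 were recovered, with 8 false calls. Far fewer genes changed there than the 34.0% called in the data, and the simulated counts held no pile-up at multiples of 4. The check therefore does not give the error rate in these data. The 5 genes and the lists were chosen with earlier results of these data known. Named were the 5 members, up to 4 called genes per list with the largest change with TGF-β1, Crim1, added after its values were seen, and the 5 genes most like each member, of which 1 is not reported here. Low counts pile up at multiples of 4 (44.3% of counts from 1 to 12), so it is open whether each count is 1 read or fragment, and counts divided by 4 were tried too. Libraries of a group differed by more than counting error, which does not show that they are separate cultures.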

Additional observations from a re-analysis of the deposited data

How the results depend on the processing

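Scaling, filter, tool, groups in the fit and left-out libraries were varied. In TGF-β1 against untreated, 5 of 5 members were called under every alternative run except the study's limits, which call 4. With M-MDSC sup against TGF-β1, 1 member instead of 2 was called when only the compared groups were fitted, and 0 under the study's limits. Leaving out a library gave 1 to 2, with 1 when TGF-β1 replicate 3 was left out. With G-MDSC sup the study's limits called 0 instead of 3. Ratios of members differed among groups for 10 of 10 pairs with CPM, with a pseudocount of 1 and without each library, and for 0 over the groups with TGF-β1 alone, a test added after the data were seen, which uses fewer libraries. The limit given for pairs with Ccn3 holds here too.

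Counts divided by 4 changed no call of a member. Uncalled differences changed sign. For Ccn3 with M-MDSC sup against TGF-β1, total-count scaling gave 0.00802, fitting only the compared groups 5.43e-05 and leaving out a library -0.366 to 0.212, including 0.0795 and 0.0517. Leaving out a library gave Ccn5 -0.0285 to 0.112 with M-MDSC sup and -0.0848 to 0.0280 with G-MDSC sup, including 0.0193. Between the supernatants it gave Ccn3 -0.171 to 0.408 and Ccn4 -0.0628 to 0.0498, including 0.0107. For Ccn1 with M-MDSC sup against untreated, total counts gave -0.0157, upper-quartile scaling -0.00708, limma -0.0109 with either pseudocount and leaving out a library -0.0266 to 0.0772. The causes were not tested.

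Same-numbered libraries of different groups did not deviate together (mean r -0.0038 over 18 pairs, none over 0.1). Of 36 differently numbered pairs, 5 were over 0.1. Whether libraries with the same number share a culture or a day is not given by the labels, and these values cannot decide it. With a replicate block, Ccn2 with M-MDSC sup against TGF-β1 stayed at -0.20 and its adjusted p was 0.0244, so 3 members were called. Ccn3 had the fewest counts of the members, 52 to 107 per library with TGF-β1, and the widest intervals.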
